A study of Mus musculus with 9 samples.

Results

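The PKM2 knock-in line was compared with the PKM1 knock-in line of mouse embryonic stem (ES) cells on each of 3 days. The members were the 3 arrays of each knock-in line, 6 of the 9 arrays of the series, chosen by line and paired by day. A wild type line gave the other 3 arrays, which are used here to place the levels of both knock-in lines. Each line was taken undifferentiated with LIF, the cytokine that holds mouse ES cells in self-renewal, at day 0, and as embryoid bodies grown in floating culture without LIF at days 3 and 7. Total RNA was labelled with Cy3 and read on one-colour Agilent mouse arrays, 1 array for each line and day. A genotype was therefore represented by 1 line, and no array had a repeat of its own line and day. Whether the lines were single clones, and whether feeder cells were used, is not given in the sources used here.

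Pyruvate kinase M makes pyruvate in the last step of glycolysis. Its gene, Pkm, carries a pair of mutually exclusive exons, and splicing of one or the other gives PKM1, a constantly active form typical of muscle and brain, or PKM2, a form under allosteric control that is typical of embryonic and proliferating cells. In embryoid bodies the outer cells form primitive endoderm, which becomes visceral endoderm, a secretory epithelium that makes serum proteins much as fetal liver does, or parietal endoderm, which lays down basement membrane. The inner cells resemble epiblast and go on to primitive streak, mesoderm and ectoderm fates while the pluripotency network is shut down.

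Values are log2 of the array signal after background subtraction, scaled so that the 75th percentile was equal on all arrays and floored at 5, which gives 2.32 as the lowest value. A difference is always PKM2 knock-in minus PKM1 knock-in on this log2 scale, so that 1 is a 2-fold higher and -1 a 2-fold lower signal in the PKM2 knock-in line. Where an array was not well above background for a gene, the difference is a value on this floored scale and not a measured fold, also in the counts of genes apart by a given fold. Of 20660 named genes on the array, 15016 were well above background on at least 3 of the 9 arrays and were analysed. Between 54.2% and 61.6% of spots were well above background and none was saturated. The number of arrays limits the precision.

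Some features of the arrays bear on what follows. At day 3 both knock-in arrays lay on the same slide, whereas at day 0 they lay on slides 1 and 2 and at day 7 on slides 3 and 2, so that slide and line cannot be told apart on those days. The RNA spike-ins added before labelling, of which 8 of 10 were detected on all arrays, had a median difference of 0.15 at day 0, -0.10 at day 3 and 0.71 at day 7. Single spike-ins ranged from -0.04 to 1.30, from -0.17 to -0.04 and from 0.59 to 3.06 on these days. The same spike-in was highest at days 0 and 7, when the others reached at most 0.19 and 0.79. The ES cell markers Pou5f1, Nanog, Sox2, Zfp42, Esrrb, Utf1 and Dppa5a, 7 of 7, were well above background on every array. Y-linked genes did not stay constant within a line. Eif2s3y, a Y-linked translation factor subunit, read 8.14, 8.35 and 9.14 in the PKM1 knock-in line at days 0, 3 and 7. The PKM2 knock-in line had 11.77, 7.69 and 4.40, the last not well above background. Ddx3y, a Y-linked RNA helicase, read 9.81, 4.77 and 2.44 in the PKM2 knock-in line. Of the PKM1 knock-in arrays it was well above background only on that of day 7, at 5.32. In the wild type line Eif2s3y read 6.38, 5.77 and 4.38. Kdm5d and Xist were not well above background on any array. Whether the arrays of a line came from one culture is not given in the sources used here, and every difference below compares arrays as labelled. What set these levels was not tested, and at day 7 no result can be given without the arrays concerned.

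Pkm, the edited gene, was read by 1 probe. In the PKM1 knock-in line it had signals of 13.57, 14.74 and 13.91 at days 0, 3 and 7. The PKM2 knock-in arrays gave 13.79, 14.33 and 13.64 and the wild type arrays 13.67, 16.12 and 14.69. The knock-in lines differed by 0.22, -0.41 and -0.27 on the 3 days, a mean of -0.15 ± 0.35 (SE, n = 3 days, limma adjusted p = 0.898). That mean turned to 0.22 with the slide as a block, which drops the PKM2 knock-in array of day 7 as the only one on its slide, and to 0.13 when the day 3 array of the PKM2 knock-in line was left out, and was -0.50 without its day 0 array. The probe was not placed against the alternative exons here, so it does not check the knock-ins. Pklr, which encodes the other pyruvate kinases, never stood well above background.

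The first question was how far apart the lines were on each day. The gap did not grow evenly: it was smallest at day 3 and by far widest at day 7. Counting genes at least 2-fold apart whose brighter array was well above background, 1424 genes (9.48%) separated the lines at day 0, 930 (6.19%) at day 3 and 4177 (27.8%) at day 7. The spread of the differences over all genes (SD) was 0.69, 0.58 and 1.30, and the correlation of the pair of arrays across genes was 0.975, 0.984 and 0.91, genes not being independent replicates. At day 0, 754 genes (5.02%) were higher and 670 (4.46%) lower in the PKM2 knock-in line. At day 3 the split was 370 (2.46%) and 560 (3.73%), and at day 7 it was 1882 (12.5%) and 2295 (15.3%). Counts of list members below are to be read beside these shares. Against wild type, the PKM1 knock-in line had 10%, 9.98% and 18.6% of genes at least 2-fold apart at days 0, 3 and 7. The PKM2 knock-in line had 12.4%, 13.2% and 19.6%. Each knock-in line was thus also furthest from wild type at day 7.

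The day 7 differences were lopsided in size. A gap of at least 4-fold was found for 339 genes higher and 1059 lower in the PKM2 knock-in line, and one of at least 16-fold for 13 higher and 279 lower. The median over all genes was 0.20 with the scaling used here and -0.49 when arrays were scaled to the spike-ins, under which 4402 of 4926 genes at least 2-fold apart (89.4%) were lower in the PKM2 knock-in line, against 54.9% in the main setting. With normexp background correction the share was 68% of 2671 genes. At day 0 spike-in scaling moved the share lower from 47.1% to 62.8%. Directions below are therefore given with this shift in mind, and of the 30 gene lists used, 25 kept the sign of their day 7 median under all 4 scalings tried.

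**Figure D1:**
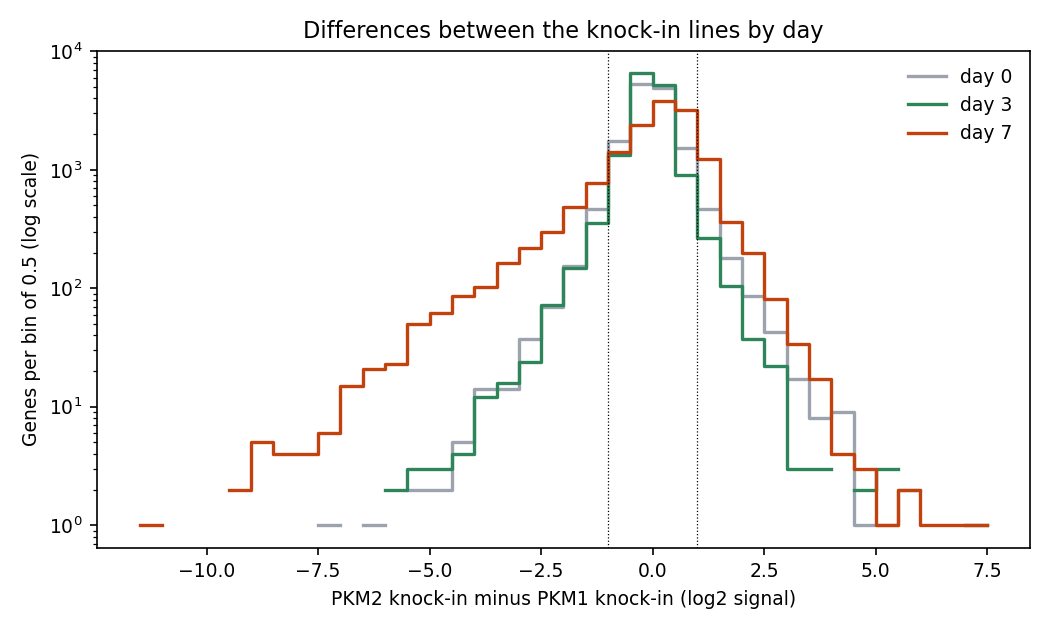
Histogram of the PKM2 knock-in minus PKM1 knock-in difference (log2 signal, horizontal axis) over all genes analysed, as genes per bin of 0.5 on a log-scaled vertical axis, with 1 line per day and dotted lines at 2-fold. The curves of days 0 and 3 lie close to each other, while the day 7 curve has a long arm towards genes lower in the PKM2 knock-in line.

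Most of the day 7 gap was absent before. Of the 2295 genes lower in the PKM2 knock-in line at day 7, 1602 (69.8%) had been within 2-fold at both earlier days, 370 (16.1%) had a gap in the same direction that was larger on each day than the day before, and 257 (11.2%) had been at least 2-fold higher in that line at day 0. Of the 1882 genes higher at day 7 the corresponding numbers were 1504 (79.9%), 202 (10.7%) and 86 (4.57%). How many genes picked by their day 7 gap would by chance have a gap larger on each day was not tested. Across genes, the day 7 differences had a correlation of -0.04 with those of day 0 and of 0.10 with those of day 3, given as a description.

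Both lines differed from their own day 0. Among the 2295 genes lower in the PKM2 knock-in line at day 7, 1545 (67.3%) were at least 2-fold above day 0 in the PKM1 knock-in line, and 714 (31.1%) were at least 2-fold below day 0 in the PKM2 knock-in line. Among the 1882 genes higher in the PKM2 knock-in line, 703 (37.4%) were at least 2-fold below day 0 in the PKM1 knock-in line and 520 (27.6%) at least 2-fold above day 0 in the PKM2 knock-in line. Over all genes the SD of the change from day 0 to day 7 was 1.28 in the PKM1 knock-in line, 0.92 in the PKM2 knock-in line and 0.83 in the wild type line. In bulk RNA like this, fewer cells of a type and less RNA per cell cannot be told apart.

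Among the genes furthest apart at day 7 were those of proteins that visceral endoderm and fetal liver secrete. Of 21 listed, 17 were analysed, and 13 of these were at least 2-fold lower and 3 higher in the PKM2 knock-in line, against 15.3% and 12.5% of all genes. Their median difference was 0.00 at day 0, -0.05 at day 3 and -5.28 at day 7, beside medians over all genes of -0.03, -0.05 and 0.20. Afp, alpha-fetoprotein, had signals of 2.56 and 2.32 in the PKM1 knock-in line at days 0 and 3 and 17.71 at day 7. The PKM2 knock-in arrays gave 2.32, 2.41 and 6.32. Neither line was well above background for Afp before day 7, and both were at day 7, when the wild type line read 9.12. The wild type array thus lay between the knock-in arrays, nearer to the PKM2 knock-in one, and the knock-in lines were 2687-fold apart.

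Fgb, the fibrinogen beta chain, stood at 14.02 against 5.03 at day 7, with 5.46 in the wild type line. Rbp4, the plasma carrier of retinol, read 7.77, 6.76 and 17.21 in the PKM1 knock-in line, against 8.05, 6.15 and 8.46 in the PKM2 line. Ttr, the thyroxine carrier transthyretin, was at 15.17 against 8.73, and F2, prothrombin, at 12.20 against 5.14. In each case the PKM1 knock-in array stood alone at the top. Where the dimmer array was not well above background only a lower bound can be given, taken against the higher of that array's lowest detected signal and the gene's own: it was at least 293-fold for the haem carrier Hpx, at least 226-fold for the protease inhibitor Serpina1a, at least 199-fold for Serpina1c and at least 109-fold for the fibrinogen gamma chain Fgg. Other genes among those furthest apart at day 7 were Tff3 (-8.14), a secreted trefoil peptide, Lgals2 (-7.59), a galectin, and Slc23a3 (at least 151-fold), a solute carrier.

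The promoters of the 4 genes of this list with the largest day 7 difference are shown because these genes stood together in 1 line on 1 day. Each is the 250 bases before the annotated start, from RefSeq on GRCm38.p6, in lower case with matches to any of 3 motifs in capitals. Afp lies at chr5:90490464-90490713 on the plus strand, Fgb at chr3:83049864-83050113 on the minus strand, Fgg at chr3:83007474-83007723 on the plus strand and Rbp4 at chr19:38125322-38125571 on the minus strand, the first of 2 Rbp4 entries.
Afp: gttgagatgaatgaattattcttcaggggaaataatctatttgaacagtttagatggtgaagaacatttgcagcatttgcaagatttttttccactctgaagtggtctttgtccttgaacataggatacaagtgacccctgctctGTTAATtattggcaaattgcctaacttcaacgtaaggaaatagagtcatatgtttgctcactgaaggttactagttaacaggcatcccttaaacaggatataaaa
Fgb: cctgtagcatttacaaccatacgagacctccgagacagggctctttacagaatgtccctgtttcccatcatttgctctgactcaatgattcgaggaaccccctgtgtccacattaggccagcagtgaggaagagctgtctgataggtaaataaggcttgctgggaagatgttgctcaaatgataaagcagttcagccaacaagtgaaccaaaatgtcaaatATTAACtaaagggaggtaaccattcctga
Fgg: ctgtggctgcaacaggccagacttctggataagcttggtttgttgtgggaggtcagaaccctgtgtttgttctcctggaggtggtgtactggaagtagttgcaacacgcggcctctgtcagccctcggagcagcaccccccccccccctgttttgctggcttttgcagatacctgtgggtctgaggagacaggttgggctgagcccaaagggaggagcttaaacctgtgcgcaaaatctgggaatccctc
Rbp4: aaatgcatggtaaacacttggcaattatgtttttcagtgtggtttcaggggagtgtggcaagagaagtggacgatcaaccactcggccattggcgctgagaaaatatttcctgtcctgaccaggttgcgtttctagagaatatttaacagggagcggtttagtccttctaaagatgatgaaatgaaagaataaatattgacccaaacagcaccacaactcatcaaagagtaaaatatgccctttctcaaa
The motifs were GTTAAT, the core read by HNF1 factors, CAAAGTCCA, the core read by HNF4, and AGATAA, read by GATA factors, each sought on both strands with no overlap between them. The HNF1 core was found once in Afp and once, on the opposite strand, in Fgb, and in 6.43% of the 32851 promoters searched, with 1 chromosome left out. The other motifs, held by 0.384% and 9.99% of those promoters, were not in these windows in exactly these letters. Other spellings read by the same factors were not sought, so their absence is not shown.

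Genes of lipoprotein assembly showed the same order of the lines. Of 9 analysed of 14 listed, 7 were at least 2-fold lower and 1 higher in the PKM2 knock-in line at day 7, with medians of 0.01, -0.18 and -4.81 on the 3 days. Apom, an apolipoprotein of high density lipoprotein, read 6.69, 6.47 and 15.01 in the PKM1 knock-in line, against 6.48, 6.59 and 7.29 in the PKM2 line. Apob, the structural protein of chylomicrons and low density lipoprotein, was at 13.89 against 7.52, and Mttp, which loads lipid onto it, at 12.01 against 7.07. Pltp, the phospholipid transfer protein, went the other way at 9.29 against 10.92. Mogat2, an acyltransferase of fat absorption, was among the 10 genes furthest apart of those measured on both arrays, at 12.62 against 5.61.

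Endocytic receptors of visceral endoderm were apart by less. Of 10 analysed of 13 listed, 8 were at least 2-fold lower in the PKM2 knock-in line at day 7 and 1 was higher, with a median of -2.12. Cubn, the receptor cubilin, had levels of 5.28, 6.63 and 14.23 in the PKM1 knock-in line, against 4.52, 5.78 and 10.50 in the PKM2 line, while the wild type line stood at 6.68 at day 7. For Cubn and its partner Amn, at 12.95, 8.36 and 5.91 in the PKM1 knock-in, PKM2 knock-in and wild type lines, both knock-in lines exceeded wild type. Dab2, an endocytic adaptor, was at 12.82 against 7.39. Tfrc, the transferrin receptor, was the member higher in the PKM2 knock-in line, by 2.07.

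Transcription factors of endoderm were apart as well. Of 14 analysed of 17 listed, 12 were at least 2-fold lower and 1 higher at day 7, with medians of 0.35, -0.09 and -3.71 on the 3 days. Sox17 read 13.11 in the PKM1 knock-in line and 6.88 in the PKM2 knock-in line at day 7, Hnf4a 12.74 and 6.80, and Gata6 12.51 and 7.19. Gata4, a partner of Gata6 in primitive endoderm, was at 13.35 against 8.31. At day 0, 6 of the 14 were at least 2-fold higher in the PKM2 knock-in line and 2 lower, beside 5.02% and 4.46% of all genes.

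Parietal endoderm and basement membrane genes gave 13 of 14 members at least 2-fold lower in the PKM2 knock-in line at day 7 and none higher, with medians of 0.38, -0.27 and -4.77. Col4a1 and Col4a2, the chains of basement membrane collagen, stood at 15.94 and 15.81 in the PKM1 knock-in line, against 10.05 and 9.87 in the PKM2 line. Lama1, a laminin chain, had 14.03, 12.95 and 17.46 in the PKM1 knock-in line, against 13.03, 12.73 and 13.36 in the PKM2 line. Before day 7 the collagen chains were between 5.61 and 8.16 in both knock-in lines, so that each had its highest level on the day 7 array. Thbd, thrombomodulin, differed by -3.51 at day 0, and was at least 4.17-fold lower at day 3 and at least 36.0-fold lower at day 7, when the PKM2 knock-in arrays were not well above background for it. Pth1r, a receptor of parietal endoderm, was at 14.37 against 8.31.

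**Figure D2:**
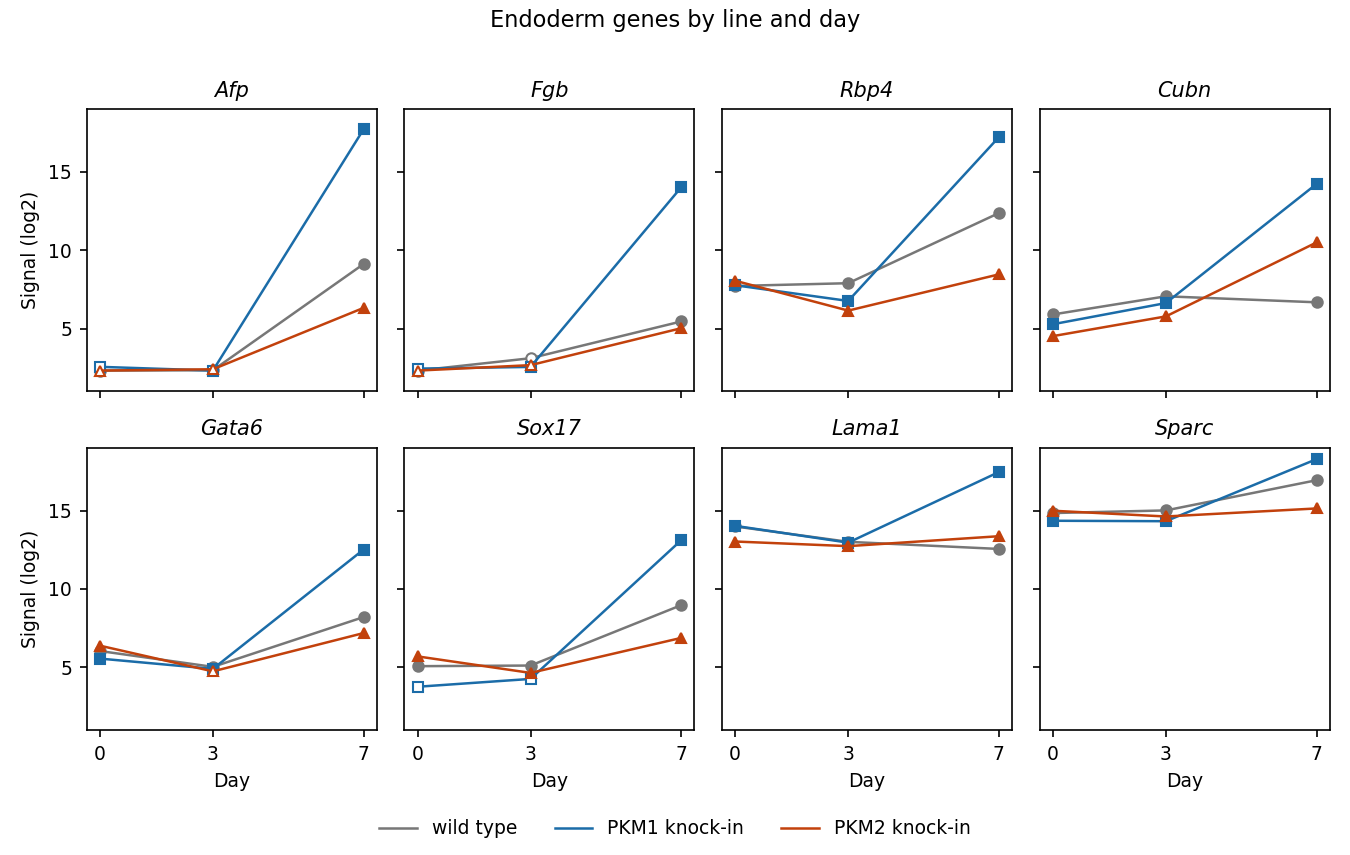
Signal (log2, vertical axis) of 8 endoderm genes by day (horizontal axis) in the wild type, PKM1 knock-in and PKM2 knock-in lines, 1 array per point, with open symbols where the probe was not well above background. At days 0 and 3 the knock-in arrays lie within 2 of each other, and the PKM1 knock-in array is the highest at day 7 in all 8 genes.

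A further group stood low in the PKM2 knock-in line while wild type lay near the PKM1 knock-in line. Of the 2295 genes lower in the PKM2 knock-in line at day 7, the wild type array was within 2-fold of the PKM1 knock-in array alone for 774 (33.7%), within 2-fold of the PKM2 knock-in array alone for 649 (28.3%) and between them at 2-fold or more from both for 315 (13.7%). For the secreted proteins of visceral endoderm the median was 4.84 above wild type in the PKM1 knock-in line and -0.98 against it in the PKM2 knock-in line. Simple epithelium, fibroblast, Hox and primitive streak genes had PKM1 knock-in medians of 0.44, -0.22, 0.08 and -0.13 against wild type, and PKM2 knock-in medians of -2.84, -2.46, -1.38 and -1.42. These comparisons share the wild type array of day 7.

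**Figure D3:**
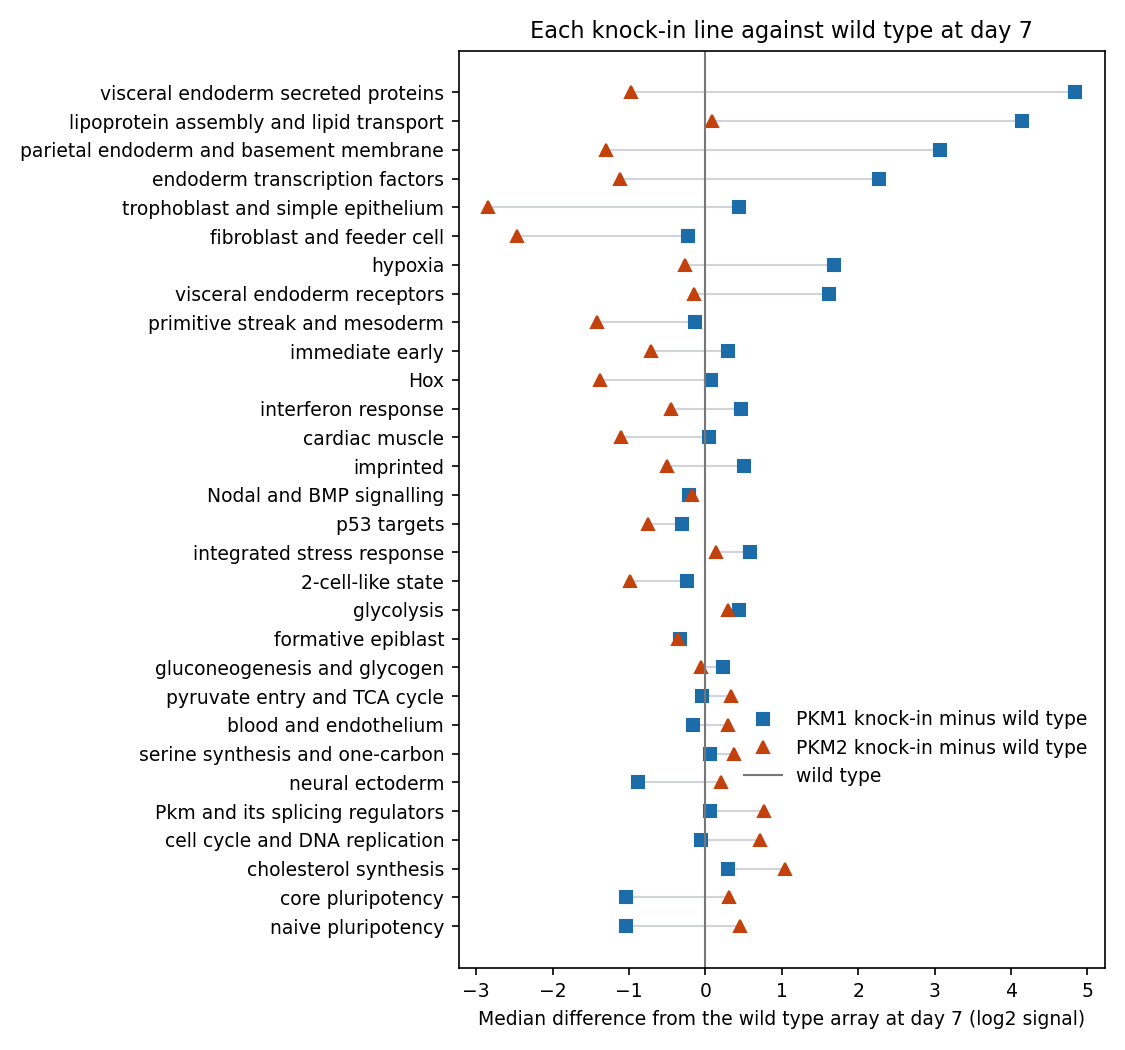
Median difference from the wild type array at day 7 (log2 signal, horizontal axis) for each of 30 gene lists, as squares for the PKM1 knock-in line and triangles for the PKM2 knock-in line, joined by a grey bar. Endoderm lists lie to the right of wild type in the PKM1 knock-in line, simple epithelium, fibroblast and Hox lists to the left of it in the PKM2 knock-in line, and pluripotency lists to the left of it in the PKM1 knock-in line.

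Genes of contractile and fibroblast-type cells were in this group. Of 21 analysed of 23 listed, 15 were at least 2-fold lower and none higher in the PKM2 knock-in line at day 7, with a median of -2.28. Acta2, smooth muscle actin, read 7.08, 4.66 and 13.60 in the PKM1 knock-in line, against 9.40, 4.43 and 4.26 in the PKM2 line, the last not well above background, which makes it at least 570-fold lower. In the wild type line Acta2 stood at 13.47 at day 7, close to the PKM1 knock-in array. Tagln, an actin-binding protein of smooth muscle, was at 14.49 in both the wild type and PKM1 knock-in lines and at 9.17 in the PKM2 knock-in line. Col1a1 and Col1a2, the chains of fibrillar collagen, differed by -4.99 and -4.40, and Anxa1, an annexin, read 13.62 against 6.21 with 14.30 in wild type. Pdgfra, a growth factor receptor also made by primitive endoderm, was by contrast at 12.08 in the PKM1 knock-in line alone, with 6.82 in the PKM2 knock-in line and 3.49, not well above background, in wild type.

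Keratins of simple epithelium followed this order. Of 14 analysed of 16 listed in the trophoblast and simple epithelium list, 9 were at least 2-fold lower and none higher at day 7, whereas at day 0, 6 were higher and 1 lower. Krt18 stood at 11.53, 10.57 and 16.91 in the PKM1 knock-in line, at 14.07, 10.46 and 11.01 in the PKM2 knock-in line and at 12.23, 11.50 and 16.02 in the wild type line. Its partner Krt8 differed by 2.53, 0.51 and -5.65. Both keratins were thus highest in the PKM2 knock-in line at day 0, within 2-fold between the knock-in lines at day 3 and lowest in the PKM2 knock-in line at day 7. Krt19 differed by 1.44, -0.85 and -6.63.

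Hox genes, which give positional identity along the body axis, were lower in the PKM2 knock-in line at day 7 in 10 of 16 analysed of 27 listed, by at least 2-fold, and higher in none. The median was 0.34, 0.15 and -1.32. Hoxc9 read 7.67 in the PKM1 knock-in and 7.27 in the wild type line at day 7, and was at least 9.36-fold lower in the PKM2 knock-in line, where it was not well above background. Hoxa3, Hoxc6 and Hoxd8 were likewise measured only in the PKM1 knock-in line of this pair, with bounds of at least 8.40-fold, 7.37-fold and 2.87-fold.

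Primitive streak and mesoderm genes had a median of 1.01 at day 0, 0.18 at day 3 and -1.60 at day 7. At day 0, 7 of 14 analysed of 19 listed were at least 2-fold higher in the PKM2 knock-in line and 1 lower, and at day 7 none was higher and 8 were lower. Wnt3, a ligand that starts the streak, read 6.72 in the PKM1 knock-in and 6.83 in the wild type line at day 7 and was at least 4.85-fold lower in the PKM2 knock-in line. Gsc, an organizer factor, was at least 10.3-fold lower. The streak factor T read 3.87, 3.37 and 6.17 in the PKM1 knock-in line, against 6.47, 3.71 and 3.63 in the PKM2 line. It was well above background in the PKM1 knock-in line only at day 7 and in the PKM2 knock-in line only at day 0.

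Cardiac genes were mixed, with 8 of 16 at least 2-fold lower and 4 higher at day 7 and a median of -0.93. Myl3, a ventricular myosin light chain, was lower in the PKM2 knock-in line on all days, by -1.63, -1.19 and -6.13. Myh7, a myosin heavy chain, was at 10.16 against 5.98, and Tnnc1, cardiac troponin C, at least 7.00-fold lower. Blood and endothelial genes had 3 members lower and 2 higher of 13 analysed of 20 listed. Beside 15.3% and 12.5% of all genes, the analysed members stood little apart from them. These members included Runx1 (at least 12.5-fold lower), a factor of blood formation, and Cd34 (2.29), a surface protein of endothelium. The endothelial marker Cdh5 was left out by the detection filter. It was well above background only on the PKM1 knock-in arrays of days 0 and 7, at 6.85 and 7.38.

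Pluripotency genes stood higher in the PKM2 knock-in line at day 7. Of 14 core genes, 8 were at least 2-fold higher and none lower, with medians of 0.07, -0.06 and 1.18, and of 18 naive state genes 12 were higher and none lower, with medians of -0.34, -0.07 and 1.50. Under spike-in scaling the day 7 medians were 0.49 and 0.81. Pou5f1, the central factor of the network, read 14.89, 15.06 and 13.06 in the PKM1 knock-in line. The PKM2 knock-in arrays gave 15.01, 15.16 and 14.98, and the wild type arrays 14.86, 15.19 and 14.47. Only the PKM1 knock-in array of day 7 departed by over 1 from the other 8. Esrrb, a nuclear receptor of the naive state, was at 14.24 against 16.27 at day 7, Tfcp2l1 at 11.14 against 13.64, and Gbx2 at 7.62 against 10.43. Klf2, a naive state factor, had 15.40, 14.29 and 12.62 in the PKM1 knock-in line, against 13.93, 14.19 and 15.03 in the PKM2 line, so that its difference passed from -1.47 to 2.41.

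Formative epiblast genes, which mark the exit from the naive state, were apart early. Of 11, 3 were at least 2-fold higher in the PKM2 knock-in line at day 0 and 5 at day 3, with none lower on either day, and at day 7, 3 were higher and 3 lower. The shares over all genes were 5.02%, 2.46% and 12.5% higher and 4.46%, 3.73% and 15.3% lower at days 0, 3 and 7. Fgf5, the standard marker of this state, read 7.53, 9.87 and 8.99 in the PKM2 knock-in line and 3.66, 8.18 and 10.50 in the PKM1 knock-in line. The value of 3.66 lies below the lowest detected signal of its array, 4.59, so the day 0 difference of Fgf5 is not a measured fold. Lef1, a Wnt effector, not well above background in the PKM1 knock-in line at day 0, differed by 2.08, 1.72 and 0.19, and Bcl11a, not well above background in either line at day 0, by 1.42, 1.21 and 2.45. Neural genes had 6 of 14 members higher and 2 lower at day 7, with Tubb3, a neuronal tubulin, at 10.34 against 12.85 and Nes, the filament nestin, at 10.03 against 7.04. The day 7 median of the neural list, 0.66, turned to -0.03 under spike-in scaling.

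Replication and sterol lists also had day 7 medians above 0, under spike-in scaling too. Of 27 cell cycle and DNA replication genes, 10 were at least 2-fold higher and 2 lower, with a median of 0.88, or 0.19 under spike-in scaling. Mcm5, a subunit of the replicative helicase, was at 13.29 against 14.66, and Rrm2, which supplies deoxynucleotides, at 13.23 against 14.55. Among the 2 lower members was Ccnd2, cyclin D2, at 12.22 in the PKM1 knock-in line, 11.17 in wild type and 6.69 in the PKM2 knock-in line. Of 21 cholesterol synthesis genes, 9 were higher and 1 lower, with medians of 0.03, -0.53 and 0.98, or 0.29 at day 7 under spike-in scaling. Idi1, an isoprenoid isomerase, was at 10.11 against 11.94, while Insig1, the feedback protein of the pathway, went the other way at 9.80 against 8.01.

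Metabolic lists near the edited enzyme were less apart. Their day 7 counts stand beside 15.3% of all genes lower and 12.5% higher. Of 23 glycolysis genes, 5 were at least 2-fold lower and none higher in the PKM2 knock-in line at day 7, with medians of 0.24, -0.17 and -0.11. The size of the day 7 median depended on the scaling. It was -0.24 with the 75th percentile of detected probes, -0.60 with quantile normalization and -0.80 with spike-in scaling. Pfkfb3, which makes an activator of glycolysis, differed by 1.09, 0.23 and -2.72. Tpi1, triose phosphate isomerase, read 15.03 against 13.31 and Ldha, lactate dehydrogenase A, 17.22 against 16.10. Of 27 genes of pyruvate entry and the tricarboxylic acid cycle, 3 were higher and 1 lower, the latter being the malic enzyme Me1 at 13.98 against 11.10. Serine and one-carbon genes had none of 13 at 2-fold, and gluconeogenesis and glycogen genes 1 of 9, Pygl, the liver glycogen phosphorylase, lower by -2.46. The day 7 medians of the tricarboxylic acid cycle (0.47), serine (0.50), blood and endothelium (0.48) and Pkm and splicing regulator (0.67) lists turned to -0.22, -0.19, -0.20 and -0.02 under spike-in scaling.

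Genes of the hypoxia response were lower in the PKM2 knock-in line at day 7 in 11 of 15 and higher in 1, with medians of 0.50, -0.14 and -2.23. They included P4ha1 and P4ha2, collagen prolyl hydroxylases, at -4.07 and -3.50, and Adm, a vasodilator peptide, at least 16.4-fold lower. Kdm3a, a histone demethylase, was the member higher, by 2.06. Of 17 p53 targets, 6 were lower and 1 higher, among them Cdkn1a, a cell cycle inhibitor, at 12.13 against 9.41. Integrated stress response genes were 6 lower and 1 higher of 18, with Atf3, which is also an immediate early gene, at 12.43 against 9.04.

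**Figure D4:**
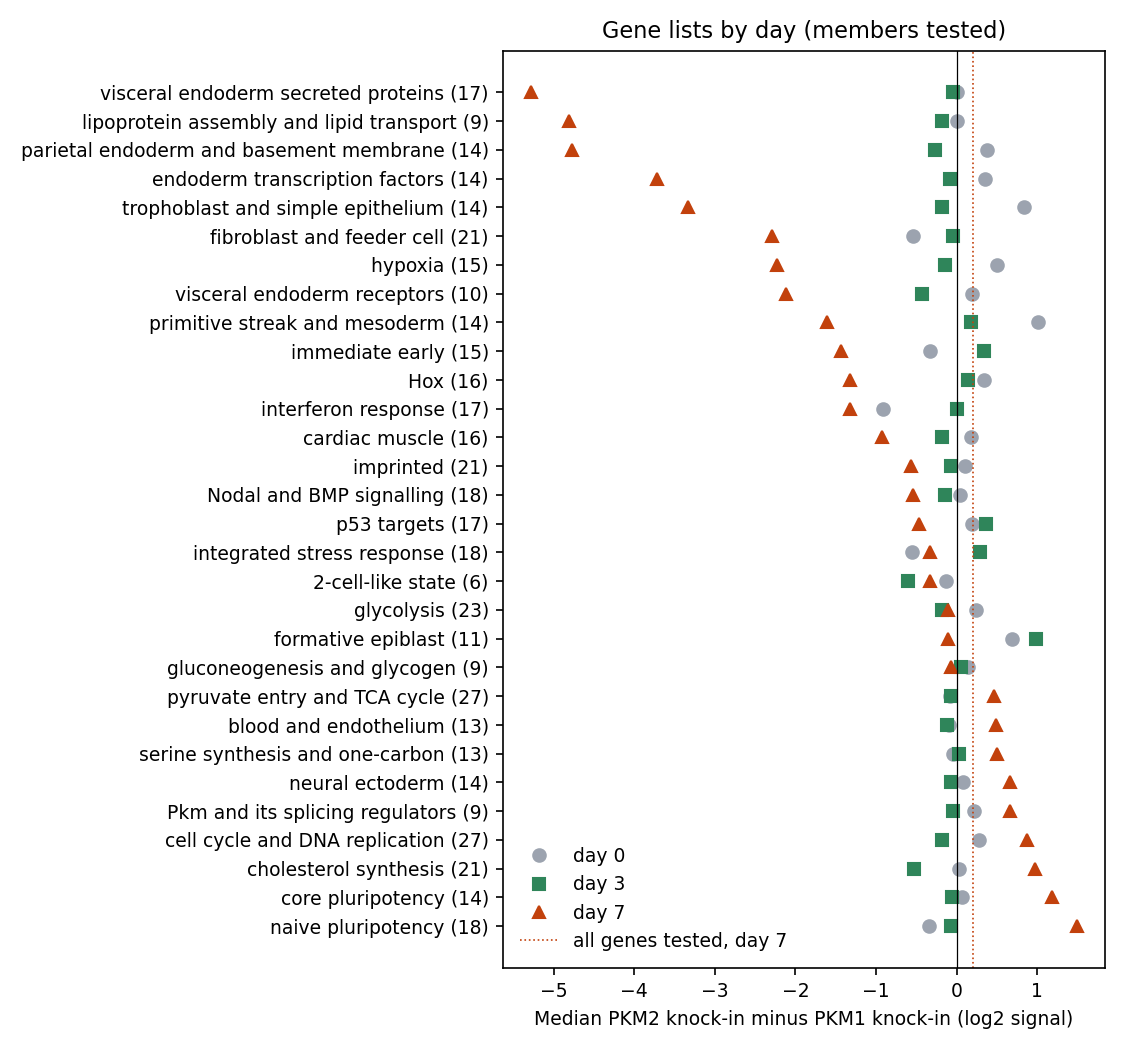
Median PKM2 knock-in minus PKM1 knock-in difference (log2 signal, horizontal axis) of 30 gene lists at days 0, 3 and 7, with the number of members analysed in brackets and a dotted line at the day 7 median of all genes. Day 3 medians lie within about 1 of 0, and the day 7 medians run from -5.28 for secreted proteins of visceral endoderm to 1.50 for naive pluripotency.

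A smaller set of genes had a gap in the same direction that was larger on each day than the day before and at least 2-fold from day 3. There were 118 such genes of the 15016 analysed, 77 lower and 41 higher in the PKM2 knock-in line, a rule set after their values were seen. How many genes would meet this rule by chance was not tested. The noncoding RNA genes Meg3 and Mirg of the imprinted Dlk1-Meg3 domain on chromosome 12 were among them. Meg3 was at 13.35, 12.22 and 13.72 in the PKM1 knock-in line, at 12.32, 9.53 and 8.39 in the PKM2 knock-in line and at 13.49, 12.36 and 13.26 in the wild type line. Mirg, the host of microRNAs in that domain, was at 10.93, 8.58 and 6.65 in the PKM2 knock-in line and between 11.24 and 12.78 on the 6 other arrays. On every day the PKM2 knock-in array thus lay below both other lines for both transcripts. Dlk1, the protein-coding gene of the domain, which is expressed from the other parental allele, differed by 0.52, -0.61 and -7.32. Over 3 days the mean difference was -3.02 ± 0.76 (SE, n = 3 days) for Meg3 and -3.17 ± 0.70 for Mirg, both with limma adjusted p = 0.600 and lower on 3 of 3 days. Igf2, another imprinted gene, was at 10.12 against 5.18 at day 7, and in all 9 of 21 imprinted genes were at least 2-fold lower and 1 higher.

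Of the genes named here that were measured on both knock-in arrays of day 3, the X-linked homeobox gene Rhox5 showed the largest gap of that day. It read 12.83, 14.69 and 15.92 in the PKM1 knock-in line, against 12.07, 10.46 and 11.17 in the PKM2 line. The wild type line had 11.53, 14.30 and 9.48, so that it lay below both knock-in lines at days 0 and 7. Rhox6, the neighbour of Rhox5 in the same gene cluster, differed by -0.91, -2.46 and -4.31. At day 7 Rhox6 read 10.76 in the PKM1 knock-in, 6.45 in the PKM2 knock-in and 7.56 in the wild type line. Among genes higher in the PKM2 knock-in line, Pou4f2, a POU factor of retinal ganglion cells, was at 10.49, 11.88 and 12.11, against 8.83, 9.89 and 4.67 in the PKM1 knock-in line. Dmbx1, a homeobox factor of the midbrain, was at 7.40, 8.80 and 11.24 against 7.32, 6.93 and 4.55. For both, the PKM1 knock-in level at day 7 was the lowest of the 9 arrays and the PKM2 knock-in level the highest.

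**Figure D5:**
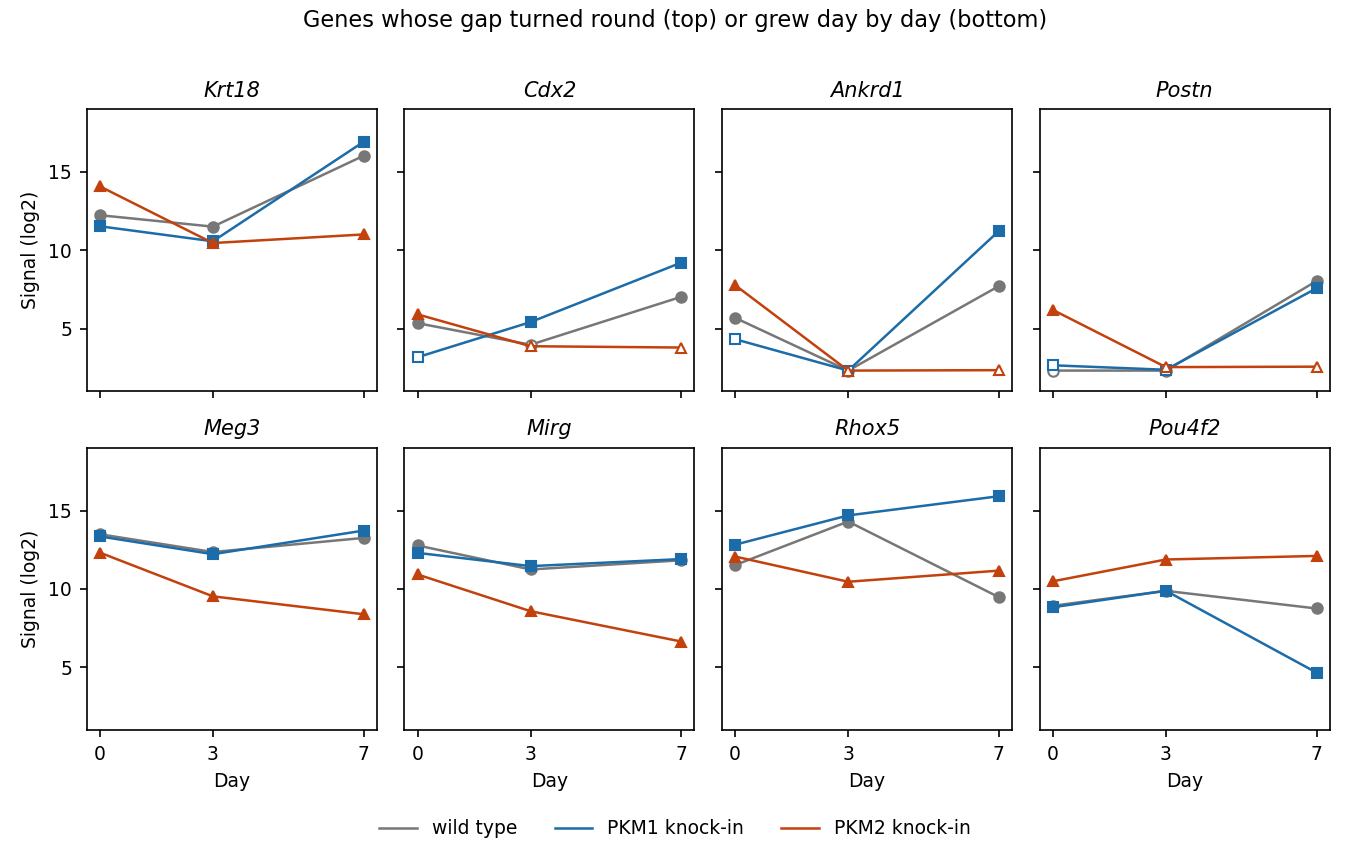
Signal (log2, vertical axis) by day (horizontal axis) of 4 genes whose gap turned round between day 0 and day 7 (top row) and 4 whose gap was larger on each day than the day before (bottom row), 1 array per point, open where not well above background. In the top row the PKM2 knock-in array is the highest at day 0 and the lowest at day 7, and for Meg3 and Mirg it lies below the others on all days.

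Other genes far higher in the PKM2 knock-in line at day 7 were Itgb2 (5.57), an integrin of leukocytes, Ripply3 (5.22), a T-box co-repressor, Msc (4.12), a basic helix-loop-helix factor, Sall3 (3.94), a zinc finger factor, and Snora47 (3.89), a small nucleolar RNA. They were followed by Zmat4 (3.75), Aard (3.74) and Nlrp4f (3.68). Measured in the PKM2 knock-in line only were Gsx2, a homeobox factor of the ventral forebrain (at least 53.1-fold), Apobec2 (at least 25.0-fold), Wfdc15a (at least 20.7-fold), Cabs1 (at least 16.9-fold) and Nlrc5, an activator of MHC class I genes (at least 12.4-fold). Itgb2 was at 5.53, 5.41 and 5.19 in the wild type line and at 10.09 in the PKM2 knock-in line at day 7, so that this array stood alone.

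At day 0, among genes measured on both knock-in arrays, those lowest in the PKM2 knock-in line were Lcn2, an iron-sequestering secreted protein (-5.05), Dcn, the matrix proteoglycan decorin (-4.17), Sod3 (-4.06), Dnajb8 (-4.01) and Cp, ceruloplasmin (-3.80). Lcn2 read 12.67 in the wild type, 13.01 in the PKM1 knock-in and 7.96 in the PKM2 knock-in line at day 0, and between 5.66 and 5.97 on all 6 later arrays. Dcn, a fibroblast marker, read 13.43, 13.40 and 9.22 at day 0. The summed signal of 10 fibroblast or feeder cell markers (log2) was 14.19 in the wild type, 14.17 in the PKM1 knock-in and 12.10 in the PKM2 knock-in line at day 0, each with 9 of 10 markers well above background. Dcn was the brightest marker on the PKM1 knock-in array, Postn went the other way, and Thy1 read 10.05 against 10.15 and Pdgfrb 6.09 against 6.01. Of the 21 genes of the longer fibroblast list, 4 were at least 2-fold higher and 5 lower in the PKM2 knock-in line at day 0. The summed signal was 10.09 and 9.54 in the knock-in lines at day 3. At day 7 it was 12.56 and 9.07, with 8 and 5 of 10 markers above background. The part of such cells in the differences of days 0 and 7 was not tested.

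Interferon response and immediate early genes were also lower in the PKM2 knock-in line at day 0. Of 17 interferon genes, 8 were at least 2-fold lower and none higher at day 0, with a median of -0.91, and 2 were lower at day 3 and 10 at day 7, when 1 was higher. Over all genes 4.46%, 3.73% and 15.3% were lower on the 3 days, and 5.02% were higher at day 0. Usp18, a brake on interferon signalling, read 8.38, 8.65 and 5.65 in the wild type, PKM1 knock-in and PKM2 knock-in lines at day 0. Fos, induced within minutes of stimulation, read 14.95, 14.20 and 11.46. For both genes the wild type array lay with the PKM1 knock-in array. Of 15 immediate early genes, 6 were lower and 2 higher at day 0.

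Higher in the PKM2 knock-in line at day 0 were Cd109, a surface protein (4.23), Zdhhc14 (3.82), Eif2s3y (3.63), Lce1g (3.41) and Cpn1, a carboxypeptidase subunit (3.16). Lce1g was at least 3.98-fold higher at day 3 and at least 4.01-fold at day 7, when it was not well above background in the PKM1 knock-in line, and Zdhhc14 differed by 0.36 and 0.11 later. At day 3, the day on which both arrays shared a slide, and among genes measured on both of them, Rhox5 (-4.23), Aadacl4fm5 (-3.81), Smcp (-3.56), Irx4 (-3.52) and the X-linked Klhl13 (-3.44) were lowest. Among the same genes measured on both arrays, Slc17a8, a vesicular glutamate transporter (3.49), Wdr78 (2.76), Lats2, a Hippo pathway kinase (2.72), Meis2 (2.70) and Lhx1 (2.63), both homeobox factors, were highest. Lefty1 and Lefty2, inhibitors of Nodal, differed by -2.33 and -2.66 at day 3 and by 1.92 and 1.13 at day 7. The PKM2 knock-in levels of both were thus below the PKM1 knock-in levels at day 3 and above them at day 7.

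Some genes were apart in the same direction on more than 1 day. Of 754 genes at least 2-fold higher in the PKM2 knock-in line at day 0, 75 (9.95%, or 20.3% of the 370 of day 3) were also higher at day 3, and 147 (19.5%, or 7.81% of the 1882 of day 7) at day 7. Of 670 lower at day 0, 82 (12.2%, or 14.6% of the 560 of day 3) were also lower at day 3, and 146 (21.8%, or 6.36% of the 2295 of day 7) at day 7. Of 370 higher at day 3, 92 (24.9%, or 4.89% of those of day 7) were also higher at day 7, and of 560 lower at day 3, 206 (36.8%, or 8.98%) were also lower at day 7. Of all genes, 2.46% were higher and 3.73% lower at day 3, and 12.5% and 15.3% at day 7. On all 3 days 18 genes were higher, among them Capn3, Ttn, Gpnmb, Pou4f2 and Sall3, and 22 were lower, among them Thbd, Meg3, Mirg, Myl3 and Acot2, names chosen after their values were seen.

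Across all genes, no difference passed a test with the 3 days as the repeats of a line. The mean difference over 3 days was tested with limma on all 9 arrays with day as a block. No gene passed (0% at an adjusted p under 0.05, smallest 0.600), and 1167 of 15016 (7.77%) had an unadjusted p under 0.05. The smallest p belonged to Mfsd9, a transporter-like gene, at -1.67 ± 0.18 (SE, n = 3 days), followed by the zinc finger gene Zfp229 (1.56), the acyl-CoA thioesterase Acot2 (-1.40), Unc93a (2.49) and the olfactory receptor Olfr1052 (3.19). Each had the same sign on 3 of 3 days and an adjusted p of 0.600 in limma. Mfsd9 was not well above background on any PKM2 knock-in array, nor Unc93a and Olfr1052 on any PKM1 knock-in array.

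The change of the gap with day was tested as a straight line in days, which left 2 residual degrees of freedom. No gene passed (0% at an adjusted p under 0.05, smallest 0.0881), 2372 (15.8%) had an unadjusted p under 0.05, and 19 had an adjusted p under 0.1. With the 6 knock-in arrays alone, or without any single wild type array, 72 genes passed in limma on 1 residual degree of freedom. The smallest p in the downward direction belonged to Postn, the matrix protein periostin, whose difference was 3.53, 0.17 and -5.0 and whose slope was -1.22 ± 0.07 per day (SE, limma adjusted p = 0.0881). Postn was well above background on the PKM2 knock-in array of day 0 and the PKM1 knock-in array of day 7, and on no other knock-in array, so that these differences and the slope are values on the floored scale. It was at least 3.04-fold higher in the PKM2 knock-in line at day 0 and at least 8.74-fold lower at day 7. It was followed by Ddx3y, Tspan8, Dkk1, Bmp2, Amot, Ankrd1, Krt18, Nrk and Flt1, with slopes from -1.79 to -0.87 and limma adjusted p values of at most 0.0893. Of these, Amot and Krt18 were well above background on all 6 knock-in arrays. Bmp2, a secreted signal of extraembryonic and mesodermal tissue, read 5.14, 3.84 and 10.82 in the PKM1 knock-in line, against 6.98, 3.16 and 5.56 in the PKM2 line. In the upward direction Cend1 (0.80 per day, limma adjusted p = 0.133), Olfr23, Ifi44, Klf2, Dmbx1, Slc15a2, Trpa1, Fut7, Ripply3 and Cd160 came first.

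The call depended on the shape given to the change. With day 7 set against the mean of days 0 and 3, 283 genes passed in limma, 260 lower (1.73% of all genes) and 23 higher (0.153%) in the PKM2 knock-in line at day 7 than the earlier days gave. Of the 17 secreted proteins of visceral endoderm 10 were among the 260, and so were 6 of 14 parietal endoderm genes, 5 of 9 lipoprotein genes, 5 of 21 fibroblast genes, and 4 of 14 endoderm transcription factors. The step was -11.31 for Afp, -8.41 for Serpina1a and -6.83 for Col4a2. Among the 23 were Itgb2, Pou4f2, Tubb3 and Lefty1, and no pluripotency, replication or cholesterol gene was called. The spread in this test came from days 0 and 3 alone, so it holds no repeat of day 7. Afp and Ttr, both called, were not well above background on any array of days 0 and 3. They read there from 2.32 to 2.56 and from 2.66 to 3.29, at or near the floor. Both met the detection filter only through the day 7 arrays. For such genes the floor narrows the spread, so the call adds nothing to the day 7 difference itself.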

How the data were processed

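Agilent Feature Extraction 10.10 gave the deposited intensity of each spot, per the file headers and the submitters' processing notes, after the authors' background subtraction. All log2 values were computed here from the deposited intensities. Per the labels' protocols, 0.1 µg of total RNA was labelled. The deposited value table holds the same values as rounded intensities (largest difference 0.497 percent). Of 62976 spots per array, 3671 controls and 133 to 225 flagged spots were left out. Probes were named through RefSeq accessions: 27235 of 55681 received 1 symbol and 28446 none, and the latter were not analysed here. Signals were scaled to the 75th percentile and floored at 5, and the probe with the highest mean stood for a gene. Per-gene tests used limma 3.58.1 (R 4.3.3) with Benjamini-Hochberg adjustment over all genes, and were tested on simulated data. The day was the block, since 1 array a day pairs the lines. Standard errors come from that fit after moderation. A missing value in 3 genes was left out of their fits. Figures were drawn in matplotlib 3.10.9.

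Lines and lists were chosen with earlier results of these data known. Named were Pkm, the 5 genes with the smallest p over 3 days, the 5 (days 0 and 3) or 10 (day 7) largest differences per direction measured on both arrays, the 5 largest bounds per direction at day 7, the 10 smallest p per direction for the change with day, and up to 4 members per list with the largest day 7 difference. Others are examples of their list or of a course over days, chosen after their values were seen. Lists were described by counts and medians with no set test. Alternatives were quantile normalization, the 75th percentile of detected probes, normexp (offset 50), the value table, no filter or detection on all 9 arrays, a floor of 1 or 20, averaging a gene's probes, trended and robust moderation, the 6 knock-in arrays alone, other thresholds, no block, the slide as a block, other shapes of the change, leaving out arrays or days, and, added after seeing the data, spike-in scaling.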

Additional observations from a re-analysis of the deposited data

Results flagged for a closer look

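The knock-in lines differed in opposite directions at day 0 and day 7 for 1 gene list and 18 named genes. The primitive streak and mesoderm list had a median difference of 1.01 at day 0 and -1.60 at day 7, and this change was not tested. For the genes the test was the straight line in days, which none passed in limma (adjusted p between 0.0881 and 0.186), and the cause was not tested.

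The values are differences on the floored log2 scale, at day 0 and then at day 7. A difference above 2 at day 0 and below -2 at day 7 was found for matrix, muscle and cytoskeletal genes: Postn (3.53 and -5.0), Acta2 (2.32 and -9.34), Ankrd1, a muscle stress protein (3.45 and -8.88), Krt18 (2.55 and -5.91) and Krt8 (2.53 and -5.65). The developmental regulators Cdx2 (2.74 and -5.42), Hand1 (2.80 and -3.23), Cer1, a secreted inhibitor of Nodal (2.87 and -4.04), and Dkk1, a secreted inhibitor of Wnt (2.64 and -4.03), had the same course. So did the surface proteins Cd109 (4.23 and -3.27), Tspan8 (2.39 and -5.89) and Dpp4 (2.61 and -3.54), the galectin Lgals2 (2.20 and -7.59) and Cpn1 (3.16 and -6.19). The Y-linked Eif2s3y (3.63 and -4.74) and Ddx3y (4.95 and -2.88) were also among them. Cend1, a neuronal protein (-2.66 and 2.94), and Ifi44, an interferon response gene (-2.24 and 2.47), went the other way. Krt18, Krt8 and Dpp4 were measured on both knock-in arrays on both days. For the others an array of at least 1 of these days was not well above background, and there the value is not a measured fold. The lower bounds were smaller: at least 3.04-fold for Postn at day 0, at least 1.62-fold for Hand1 and at least 1.09-fold for Tspan8 on that day, and at least 1.83-fold for Ddx3y at day 7.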

How the results depend on the processing

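No gene passed the test over 3 days in any of 28 alternatives, with no replicate block, with the slide as a block or with any array or day left out (0 to 0 genes). The array alone on its slide drops out of the fit with the slide as a block. The test of the change with day called 0 genes in the main setting and under quantile, detected-probe, normexp and spike-in scaling, but 8 when probes had to be detected on all 9 arrays, 70 with trend and robust moderation, 72 with the 6 knock-in arrays alone, 19 at an adjusted p under 0.1 and 283 with day 7 set against the mean of days 0 and 3. Without the wild type line or any single wild type array it called 72 to 72, with 1 residual degree of freedom. With normexp background correction, 546, 282 and 2671 genes were at least 2-fold apart at days 0, 3 and 7, and among genes detected on all 9 arrays 823 and 506 at days 0 and 3, so that day 3 kept the fewest and day 7 the most. Endoderm factor, simple epithelium and primitive streak lists had day 7 medians of -3.71, -3.33 and -1.60 in the main setting. Among genes detected on all 9 arrays these were -2.15, -2.17 and -0.94. There the 2-cell-like and gluconeogenesis medians turned from -0.33 and -0.07 to 0.67 and 0.14, while the other lists kept their sign. The Pkm difference reversed to 0.22 with the slide as a block and ranged from -0.50 to 0.13 with 1 array or day left out, the lowest without the PKM2 knock-in array at day 0 and the highest without that at day 3. The cause of these shifts was not tested. Of the 33 named genes with several probes, 0 had a probe of opposite sign. Every day 7 statement rests on 1 array per line, and signal over background limits genes given only as bounds.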

Other observations

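Of 6 analysed genes listed for the state of rare ES cells that resemble the 2-cell embryo, the near-identical copies Zscan4f and Zscan4c were measured at days 0 and 3 in the wild type line only. These were picked after their values were seen, and the difference from wild type was not tested. Zscan4f, a telomere-associated factor, read 8.01 and 10.05 in the wild type line at days 0 and 3 and was not well above background in either knock-in line on those days. At day 7 it read 7.45 and 7.36 in the wild type and PKM1 knock-in lines and stayed below background in the PKM2 knock-in line, at least 7.53-fold lower than in the PKM1 knock-in line. Zscan4c read 6.95, 9.26 and 6.49 in the wild type line and was well above background in the knock-in lines only on the PKM1 array of day 7, at 5.16. Values of single copies of this family are uncertain. Zfp352, another listed gene, read 12.49 and 12.86 in the wild type line at days 0 and 3, and 13.10 and 12.67 in the PKM1 knock-in line.

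Among the genes higher in the PKM2 knock-in line on all 3 days were Capn3, a calpain (at least 7.61-fold at day 0, when the PKM1 knock-in array was not well above background), and Ttn, the sarcomere protein titin (a difference of 3.12 at day 0).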
